A study of Mus musculus with 12 samples.

Results

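Estrogen receptors act on genes through coregulators, and 9 of these genes, Ncoa1, Ncoa2, Ncoa3, Ncor1, Nrip1, Med1, Ep300, Crebbp and Carm1, were followed in the mouse mammary gland. They were taken from a list of named coregulators, and every probe set that the platform annotation links to one of those symbols alone was included. Of the 9 genes, 8 were measured, by 28 of the 34945 probe sets that the annotation links to 1 gene, and among 18193 genes in all. The annotation links no probe set to Ncor1 alone. This corepressor brings histone deacetylases to receptors without hormone, and it was not analysed here.

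The 12 arrays, 1 per mouse, form 4 groups of 3 virgin C57BL/6 mice: Ccnd1-/- on estradiol (E2), Ccnd1-/- on placebo, Ccnd1+/+ on estradiol and Ccnd1+/+ on placebo, called knockout and wildtype below. All mice had been ovariectomized, so the placebo groups lacked their main source of estrogen, and all were treated for 7 days with pellets, the estradiol ones holding 0.72 mg with a 60-day release. Ccnd1 encodes cyclin D1, and the knockout is of the whole animal, so it is not limited to any cell type of the gland. The labels give neither the age of the mice, nor which gland was taken, nor whether its lymph node was removed. The title of the series asks whether cyclin D1 shapes the estrogen response of the gland, a question that the genotype by treatment interaction bears on.

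Hormone-bound estrogen receptor alpha recruits the p160 coactivators (Ncoa1, Ncoa2 and Ncoa3) through short leucine-rich motifs. These bring in the histone acetyltransferases p300 and CBP and the arginine methyltransferase CARM1, while MED1 links the receptor to the Mediator complex and RNA polymerase II. NRIP1, also called RIP140, competes with the p160 proteins for the liganded receptor and lowers its output. Cyclin D1 is known to bind both the estrogen receptor and p160 coactivators without its kinase partner.

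The genotype and the hormone were visible in the arrays. Ccnd1 lay between 7.24 and 7.68 log2 units in the 6 knockout arrays and between 8.50 and 10.82 in the 6 wildtype arrays, a difference of -1.93 log2 units (exact two-sided permutation test, p = 0.002165, the smallest that 924 arrangements of the arrays allow). Greb1, a direct target of the estrogen receptor, was higher under estradiol by 4.41 log2 units in knockout mice (limma, adjusted p = 7.756e-05) and by 5.83 in wildtype mice (adjusted p = 7.458e-06). The progesterone receptor gene Pgr differed by 1.61 in knockout mice (adjusted p = 0.1995; without knockout placebo array 3, 2.05 and 0.0212) and by 3.06 in wildtype mice (adjusted p = 0.002492). Esr1, which encodes estrogen receptor alpha, differed under estradiol by -0.50 ± 0.39 log2 units in knockout mice and by -0.44 ± 0.39 in wildtype mice (SE), and neither passed (adjusted p = 0.779 and 0.695). Between any pair of arrays the correlation over genes was 0.937 or more. Among the markers of the gland, all 10 of luminal epithelium and 7 of 8 of basal cells were above the lower quartile of all genes on at least 8 arrays, while Krt17 lay below it on all 12.

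The arrays also differed in markers of other cells. The level of 8 T and B cell markers (the mean of their log2 values, each centred over the 12 arrays) lay between -2.52 and -2.07 in 5 arrays and between 0.30 and 2.51 in the other 7. The 5 were knockout estradiol array 1, knockout placebo array 2, wildtype estradiol arrays 1 and 3 and wildtype placebo array 3, so each group held at least 1. In those 5 arrays Cd3d and Cd3g, which build the T cell receptor complex, lay below the lower quartile of all genes.

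No member was called, at an adjusted p under 0.05 over all 18193 genes, in any of 7 comparisons. Over all genes, estradiol called 0.0989% in knockout mice, 1.88% in wildtype mice and 1.58% on average over the genotypes. Knockout against wildtype called 1.12% of genes under estradiol, 0% under placebo and 0% on average over the treatments, and the interaction called 0.011%. At an unadjusted p under 0.05 the members numbered 1 in the knockout estradiol response, 1 in the wildtype estradiol response, 2 in their average and 1 in the genotype comparison under estradiol, with 0 in the other 3 comparisons. Over all genes those shares were 8.32%, 13.5%, 16.4% and 13.5%, and 2.03%, 10.1% and 6.43% for genotype under placebo, genotype on average and the interaction. These members were Ncoa2 in knockout mice, Carm1 in wildtype mice, both in the average, and Carm1 in the genotype comparison. The count called in the average response changed with 1 array: without wildtype placebo array 3, Ncoa2 and Carm1 were both called there, and Ncoa2 was called in the wildtype response. That fit called 1400 genes for the average and 1146 for the wildtype response, against 287 and 342 with all arrays. The wildtype placebo arrays kept had T and B cell levels of 2.51 and 1.86, and the wildtype estradiol arrays had -2.34, 0.89 and -2.52. Hormone and that level therefore overlap in part in that fit, and it cannot fully tell them apart.

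The spread of the arrays limited what could be seen. The 95% interval of the difference lay within 1 log2 unit of 0, a doubling or halving, for 5 of the 8 members in the knockout estradiol response (78.9% of all genes) and for 7 in the wildtype one (75.6%). For genotype it did so for all 8 members under estradiol (77.3%) and under placebo (85%), and for 5 in the interaction (64.7%). In the averages over the other factor it did so for all 8 members, for estradiol (85.9%) and for genotype (90.5%). Residual standard deviations within groups ran from 0.13 log2 units for Carm1, at the 15th percentile of all genes, to 0.44 for Ncoa3, at percentile 82.1. In whole tissue, fewer cells of a type and less RNA per cell cannot be told apart.

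**Figure D1:**
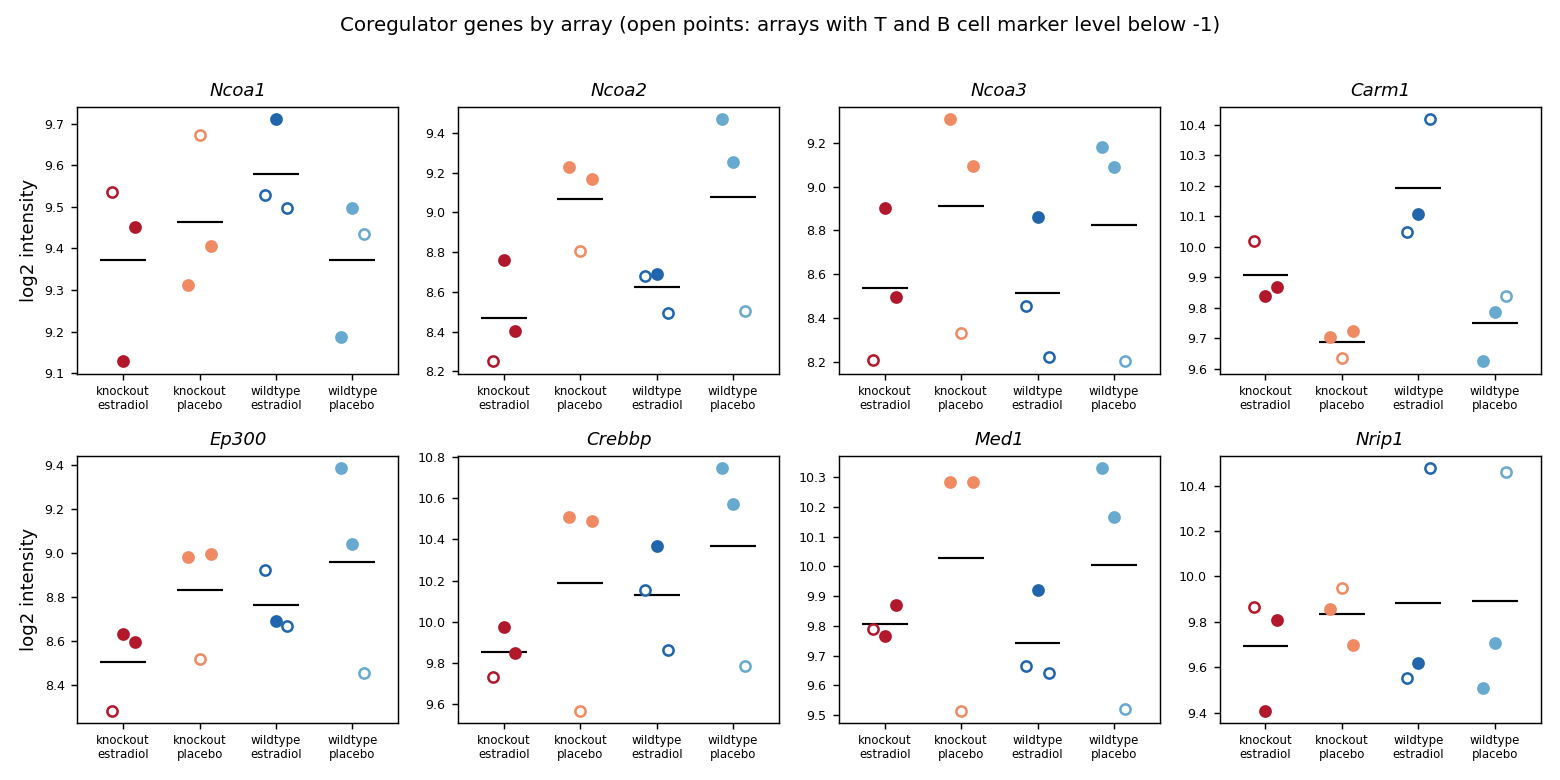
Log2 intensity of the 8 measured coregulator genes in each of the 12 arrays, 1 panel per gene with its own vertical scale that does not start at 0; points are arrays, coloured by group and open where the T and B cell level is below -1, and bars are group means. Carm1 sits higher in both estradiol groups than in the matching placebo groups, while Ncoa3, Crebbp and Med1 spread widely within the placebo groups.

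Of the p160 family, Ncoa2 (GRIP1, also named TIF2) differed most with estradiol. It read 8.25, 8.76 and 8.40 log2 units in the knockout estradiol arrays, 9.23, 8.80 and 9.17 in the knockout placebo arrays, 8.68, 8.69 and 8.50 in the wildtype estradiol arrays and 9.47, 9.26 and 8.51 in the wildtype placebo arrays. In knockout mice all estradiol arrays lay below all placebo arrays, a separation seen in either direction for 2 of 8 members (Ncoa2 and Carm1) and 13.5% of all genes. In wildtype mice 1 member, Carm1, separated so, against 17% of all genes, and between genotypes under placebo 0 did, against 6.71%. The wildtype groups of Ncoa2 overlapped, since the third placebo array was as low as the estradiol arrays. The estradiol difference was -0.60 ± 0.24 log2 units in knockout mice (SE; adjusted p = 0.540), -0.45 ± 0.24 in wildtype mice (adjusted p = 0.459) and -0.53 ± 0.17 on average (adjusted p = 0.167). The average lies at -0.67 without wildtype placebo array 3, one of the 5 arrays poor in T and B cell genes (adjusted p = 0.0179). That omission leaves only wildtype placebo arrays rich in these genes. With the level of white adipocyte markers or of endothelial markers as a covariate, the average was called at -0.40 (adjusted p = 0.0413) or -0.58 (adjusted p = 0.0055). Genes called over the whole table in these fits were not counted. With the skeletal muscle, luminal, brown adipocyte, macrophage and fibroblast levels the average was -0.52, -0.47, -0.58, -0.42 and -0.25, none called (adjusted p from 0.123 to 0.885). With the level of basal and myoepithelial markers it was 0.20 (adjusted p = 0.757) and the wildtype response turned to 0.73 (adjusted p = 0.405). With the fibroblast markers the wildtype response was 0.10 (adjusted p = 0.864). Basal and fibroblast levels were higher in every wildtype estradiol array than in all other arrays. These fits therefore cannot tell hormone and level apart in wildtype mice. With the T and B cell level the difference was -0.50 in knockout mice, -0.20 in wildtype mice (adjusted p = 0.505) and -0.35 on average (adjusted p = 0.115). The mean of its probe sets gave -0.26 in knockout mice (adjusted p = 0.846), -0.30 in wildtype mice and -0.28 on average (adjusted p = 0.353). The other 3 Ncoa2 probe sets differed on average by -0.35, -0.22 and -0.03 log2 units, none called.

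Ncoa3 (AIB1 or SRC-3), the p160 gene often amplified in human breast cancer, varied most within groups. It read 8.21, 8.90 and 8.50 in the knockout estradiol arrays, 9.31, 8.33 and 9.09 in the knockout placebo arrays, 8.46, 8.86 and 8.22 in the wildtype estradiol arrays and 9.18, 9.09 and 8.20 in the wildtype placebo arrays. All 4 groups overlapped, with the lowest array in wildtype placebo and the highest in knockout placebo. The estradiol difference was -0.38 ± 0.33 in knockout mice (adjusted p = 0.805) and -0.31 ± 0.33 in wildtype mice (adjusted p = 0.753). With the T and B cell level as a covariate it was -0.22 in knockout and 0.09 in wildtype mice.

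Ncoa1 (SRC-1), a p160 gene whose protein is known to bind cyclin D1, was among the steadier members. It read 9.54, 9.13 and 9.45 in the knockout estradiol arrays, 9.31, 9.67 and 9.41 in the knockout placebo arrays, 9.53, 9.71 and 9.50 in the wildtype estradiol arrays and 9.19, 9.50 and 9.44 in the wildtype placebo arrays. All 4 groups overlapped on this probe set, the brightest of 3. The estradiol difference was -0.09 ± 0.15 in knockout mice (interval -0.42 to 0.23) and 0.21 ± 0.15 in wildtype mice (interval -0.12 to 0.53). The interaction, -0.30 ± 0.21, was the member difference of largest size in that comparison and did not pass (adjusted p = 0.885). Another Ncoa1 probe set, 1434515_at, differed under estradiol by 0.01 in knockout and 0.36 in wildtype mice. Its knockout estradiol arrays (8.83 to 9.31) lay below its wildtype estradiol arrays (9.35 to 9.56), where 22.3% of all genes separate in either direction. That difference was -0.38 ± 0.18 and was not called (adjusted p = 0.429 over all probe sets).

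Carm1, the arginine methyltransferase that p160 proteins bring to promoters, was the only one of the 8 whose estradiol arrays all lay above the placebo arrays in both genotypes. They did so for 2.06% of all genes, a share counted in this direction only. Carm1 read 10.02, 9.84 and 9.87 log2 units in the knockout estradiol arrays, 9.70, 9.63 and 9.72 in the knockout placebo arrays, 10.05, 10.11 and 10.42 in the wildtype estradiol arrays and 9.62, 9.79 and 9.84 in the wildtype placebo arrays. The lowest knockout estradiol array stood at the level of the highest wildtype placebo array, and the wildtype estradiol arrays stood narrowly above all others. Their lowest array was at 10.05 and knockout estradiol array 1 at 10.02. The share of all genes that separate in this way was not counted. The estradiol difference was 0.22 ± 0.12 in knockout mice (interval -0.04 to 0.48, adjusted p = 0.668) and 0.44 ± 0.12 in wildtype mice (interval 0.18 to 0.70, adjusted p = 0.0968). Averaged over the genotypes it was 0.33 ± 0.08 (adjusted p = 0.0874), and without wildtype placebo array 3 it was 0.35 (adjusted p = 0.0448). Under estradiol the knockout arrays lay below the wildtype arrays without overlap, as did those of Ep300; 22.3% of all genes separate in either direction there. The difference for Carm1 was -0.28 ± 0.12 (adjusted p = 0.332).

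Markers of several cell types were highest in the wildtype estradiol arrays, where Carm1 was highest. The level of the luminal markers lay between -1.76 and -0.68 in knockout estradiol, -1.68 and 0.19 in knockout placebo, 1.22 and 2.71 in wildtype estradiol and -0.04 and 0.39 in wildtype placebo arrays. That of the basal and myoepithelial markers lay between -0.20 and 0.06, -0.67 and -0.21, 0.77 and 1.56 and -1.01 and 0.02 in the same order of groups. With the luminal level as a covariate the wildtype Carm1 difference was 0.39 (adjusted p = 0.639), and with the basal level it was 0.25 (adjusted p = 0.682). The macrophage level lay between 0.40 and 1.63 in the wildtype estradiol arrays and at 0.15 or less in the other 9, and the fibroblast level between 0.42 and 0.87 there and at 0.38 or less in the others. With these levels as covariates the wildtype Carm1 difference was 0.56 (macrophage, adjusted p = 0.839) and 0.35 (fibroblast, adjusted p = 0.305). The luminal, basal, macrophage and fibroblast levels each separated the wildtype estradiol arrays from all others. Hormone and level therefore overlap in these fits, and their adjusted p-values cannot tell them apart. With the endothelial level the average difference was 0.34 and was called (adjusted p = 0.0307). Genes called over the whole table in that fit were not counted. With each of the other levels the average was not called, and it ran from 0.21 (basal) to 0.40 (macrophage). Only 1 probe set, of the kind that by the maker's naming can match several transcripts, measures Carm1.

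**Figure D2:**
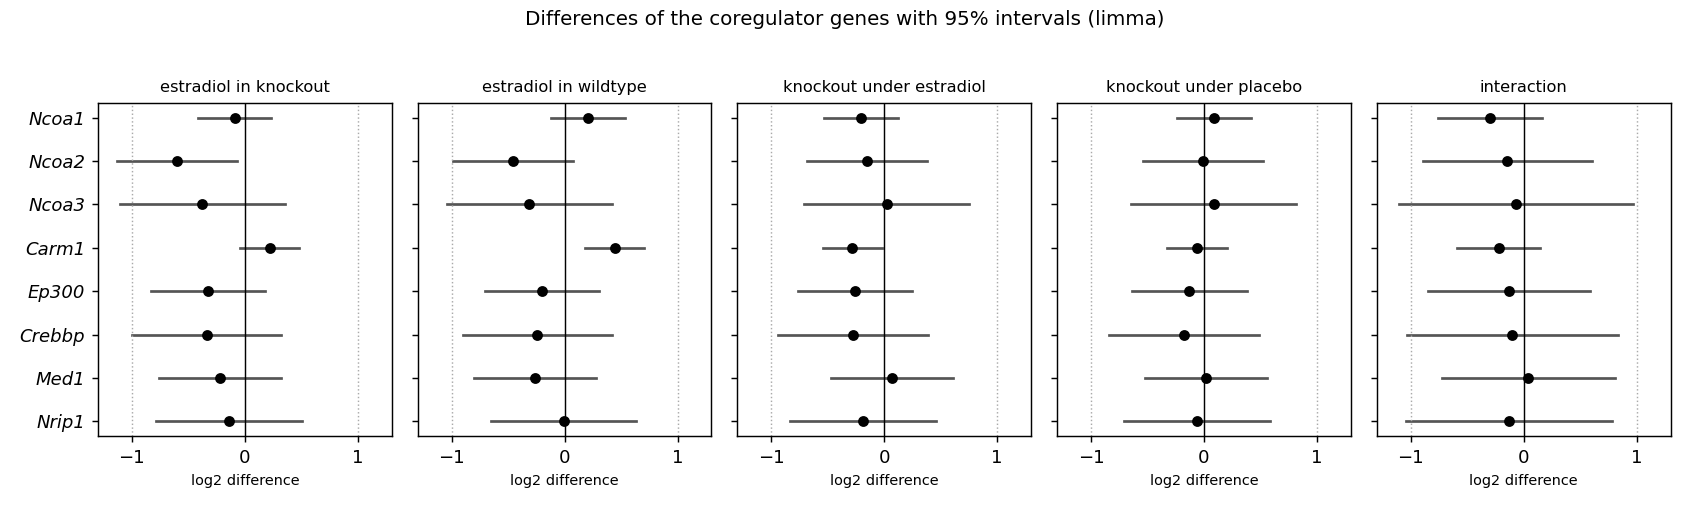
Log2 difference (horizontal axis) of each of the 8 members (rows) with its 95% interval, 1 panel for each comparison other than the averages; dotted lines mark 1 log2 unit on either side of 0. No member is called, the interval of Carm1 for estradiol in wildtype mice (0.18 to 0.70) leaves out 0, and so do those of Ncoa2 for estradiol in knockout mice (-1.13 to -0.07) and of Carm1 for knockout against wildtype under estradiol (-0.55 to -0.02).

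The paralogous histone acetyltransferases Ep300 (p300) and Crebbp (CBP) acetylate histones and bind the p160 proteins. Ep300 and the brightest Crebbp probe set were both lower on average under estradiol in each genotype but within the spread. Ep300 read 8.28, 8.63 and 8.60 log2 units in the knockout estradiol arrays, 8.98, 8.52 and 8.99 in the knockout placebo arrays, 8.92, 8.69 and 8.67 in the wildtype estradiol arrays and 9.38, 9.04 and 8.45 in the wildtype placebo arrays. Crebbp read 9.73, 9.98 and 9.85 in the knockout estradiol arrays, 10.51, 9.57 and 10.49 in the knockout placebo arrays, 10.15, 10.37 and 9.86 in the wildtype estradiol arrays and 10.75, 10.57 and 9.78 in the wildtype placebo arrays. For both genes the second knockout placebo array and the third wildtype placebo array were the low ones of their groups, and estradiol and placebo overlapped in both genotypes. The estradiol difference of Ep300 was -0.33 ± 0.23 in knockout mice and -0.20 ± 0.23 in wildtype mice, and that of Crebbp was -0.34 ± 0.30 and -0.24 ± 0.30, none called (adjusted p from 0.755 to 0.807). The wildtype differences turned above 0 with the T and B cell level as a covariate, to 0.017 for Ep300 and 0.099 for Crebbp, and that of Ep300 was 0.0135 without wildtype placebo array 1. Between genotypes under estradiol, Ep300 differed by -0.26 ± 0.23 (adjusted p = 0.669) and Crebbp by -0.28 ± 0.30 (adjusted p = 0.736). With the T and B cell level as a covariate that Crebbp difference was -0.47 (adjusted p = 0.0928). For estradiol against placebo the other 3 Crebbp probe sets differed in sign, none called. In knockout and wildtype mice they gave -0.28 and -0.10 (1434633_at), -0.05 and 0.06 (1436983_at) and 0.51 and -0.16 (1459804_at). The last of these lay below the lower quartile of all genes on 10 arrays.

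The promoters of this pair are shown because the 2 genes encode close relatives and both rose with the T and B cell level of the arrays, as given further on. The sequences are from RefSeq on GRCm38.p6, 250 bases before to 50 after the start of the gene, and capitals mark GGGCGG, the GC box bound by Sp1 family factors, searched on both strands. Ep300 lies on the plus strand at chr15:81585964-81586263, with 72.3% G and C and 1 match. Crebbp lies on the minus strand at chr16:4213355-4213654, with 82% G and C and 2 matches that overlap.
Ep300: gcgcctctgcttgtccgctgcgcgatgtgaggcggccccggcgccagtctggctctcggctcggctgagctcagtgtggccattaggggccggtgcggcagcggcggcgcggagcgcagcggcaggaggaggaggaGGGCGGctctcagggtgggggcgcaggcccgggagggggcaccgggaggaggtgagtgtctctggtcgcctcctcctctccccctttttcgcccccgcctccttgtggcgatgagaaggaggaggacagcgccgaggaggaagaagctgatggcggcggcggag
Crebbp: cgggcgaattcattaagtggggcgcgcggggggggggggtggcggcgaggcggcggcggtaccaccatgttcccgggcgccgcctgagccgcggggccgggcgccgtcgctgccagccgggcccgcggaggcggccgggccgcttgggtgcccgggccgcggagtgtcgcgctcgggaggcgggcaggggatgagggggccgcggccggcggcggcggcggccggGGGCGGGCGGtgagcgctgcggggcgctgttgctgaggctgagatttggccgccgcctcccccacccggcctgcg
Of the 32851 promoters in the table, 35.7% hold GGGCGG, and the median content of G and C is 52.7%. A promoter was given for 5 of the 8 measured members; Ncoa2, Ncoa3 and Carm1 have none there. The promoters of Ncoa1 (84.7% G and C, 7 GC boxes) and Med1 (68.3%, 1 GC box) are not shown. None of the 6 promoters of measured members holds the full estrogen response element palindrome, GGTCA and its reverse complement with 3 bases of any kind between them (0.07% of all promoters hold it).

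Med1, the Mediator subunit that contacts liganded nuclear receptors and is known to be needed for mammary growth in mice, was called in no comparison with all arrays weighted alike. It read 9.79, 9.76 and 9.87 log2 units in the knockout estradiol arrays, 10.28, 9.52 and 10.28 in the knockout placebo arrays, 9.66, 9.92 and 9.64 in the wildtype estradiol arrays and 10.33, 10.17 and 9.52 in the wildtype placebo arrays. The estradiol arrays were tightly grouped and overlapped the placebo arrays, which were split between high and low. Its estradiol difference was -0.22 ± 0.24 in knockout mice and -0.26 ± 0.24 in wildtype mice (adjusted p = 0.845 and 0.711). The wildtype value was -0.009 with the T and B cell level as a covariate, and -0.51 and called (adjusted p = 0.0292) without the 2 placebo arrays poor in T and B cell genes. That omission left only placebo arrays rich in these genes, and kept wildtype estradiol arrays 1 and 3, which are poor in them. Hormone and level therefore overlap in that fit, which called 2154 genes for the wildtype response. Of the 7 Med1 probe sets, 1439408_a_at lay below the lower quartile of all genes on all 12 arrays, as did 1443397_at of Ncoa1.

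Nrip1 (RIP140), the corepressor of liganded receptors, a known target of estrogen in breast cancer cells and a regulator of fat metabolism, was measured by 6 probe sets. The brightest, 1434384_at, read 9.87, 9.41 and 9.81 in the knockout estradiol arrays, 9.86, 9.95 and 9.70 in the knockout placebo arrays, 9.55, 9.62 and 10.48 in the wildtype estradiol arrays and 9.51, 9.71 and 10.46 in the wildtype placebo arrays. The third array of each wildtype group stood above all 10 others, and all groups overlapped. These arrays also had the highest white adipocyte levels, 0.27 in the wildtype estradiol array and 0.46 in the wildtype placebo array. Its estradiol difference was -0.14 ± 0.29 in knockout mice and -0.01 ± 0.29 in wildtype mice (adjusted p = 0.919 and 0.995). The sign of the wildtype value turned when single arrays were left out, running from -0.31 to 0.28.

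One further probe set of Nrip1, 1432603_at, separated the genotypes. It read 6.02, 5.89 and 5.91 in the knockout estradiol arrays, 5.79, 5.79 and 5.68 in the knockout placebo arrays, 5.51, 5.61 and 5.55 in the wildtype estradiol arrays and 5.67, 5.55 and 5.60 in the wildtype placebo arrays. All 6 knockout arrays lay above all 6 wildtype arrays, as they did for 0.369% of the 34945 probe sets. That share counts this direction only, while the member probe sets were searched in either direction. The average genotype difference was 0.26 ± 0.06 log2 units (adjusted p = 0.216 over all probe sets), and under estradiol alone it was 0.38 ± 0.09 (adjusted p = 0.0914; 0.0499 with the T and B cell level as a covariate). Of the other 5 probe sets, 1454295_at differed by 0.40 ± 0.20 on average and the remaining 4 by -0.12 to -0.32, none called, so the probe sets of this gene disagree in sign. The probe set was singled out after its values had been seen, and none of the 28 member probe sets was called in any comparison.

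**Figure D3:**
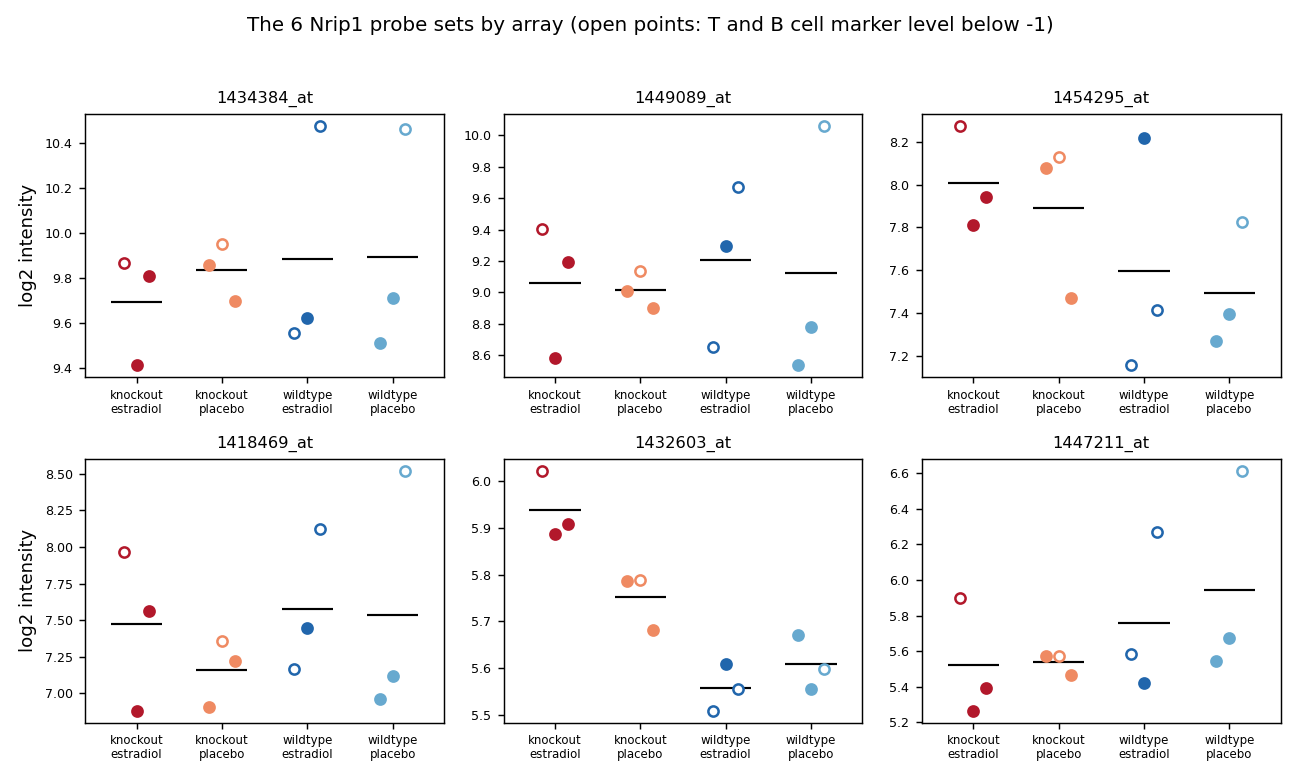
Log2 intensity of the 6 Nrip1 probe sets in the 12 arrays, 1 panel per probe set with its own vertical scale that does not start at 0; points are arrays, coloured by group and open where the T and B cell level is below -1, and bars are group means. In 1432603_at the 6 knockout arrays (5.68 to 6.02) lie above the 6 wildtype arrays (5.51 to 5.67), and in 1434384_at they overlap.

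RefSeq gives Nrip1 a pair of starts, and both promoters are shown because the gene is an estrogen target by background knowledge while its estradiol difference was not called here. Both lie on the minus strand of GRCm38.p6, at chr16:76373778-76374077 (Nrip1 start 1) and chr16:76373000-76373299 (Nrip1 start 2). Capitals mark GGTCA, the core of an estrogen response element, searched on both strands, which start 1 holds at 1 place and start 2 does not hold.
Nrip1 start 1: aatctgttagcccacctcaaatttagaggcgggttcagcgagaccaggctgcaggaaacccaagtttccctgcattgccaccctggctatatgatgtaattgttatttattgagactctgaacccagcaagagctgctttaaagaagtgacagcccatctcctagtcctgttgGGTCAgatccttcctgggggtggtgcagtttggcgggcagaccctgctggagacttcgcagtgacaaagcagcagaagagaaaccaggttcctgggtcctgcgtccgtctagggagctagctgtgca
Nrip1 start 2: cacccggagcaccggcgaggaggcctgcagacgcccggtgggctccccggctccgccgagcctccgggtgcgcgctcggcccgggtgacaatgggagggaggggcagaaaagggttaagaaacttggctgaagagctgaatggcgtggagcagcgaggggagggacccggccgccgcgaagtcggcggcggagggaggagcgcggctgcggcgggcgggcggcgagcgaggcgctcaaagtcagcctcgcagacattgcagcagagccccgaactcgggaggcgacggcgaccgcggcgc
Of all promoters in the table, 40.5% hold GGTCA in 300 bases. Start 2 holds GGGCGG at 2 places, left in lower case, and has 73.3% G and C against 52.7% at start 1.

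No member was called between genotypes or in the interaction. Under estradiol, knockout minus wildtype ran from -0.28 (Carm1, whose interval of -0.55 to -0.02 leaves out 0) to 0.07 (Med1). Under placebo, knockout minus wildtype ran from -0.18 (Crebbp) to 0.09 over the 8 genes, with Ep300 at -0.13. On average over the treatments it ran from -0.23 (Crebbp) to 0.06, with Ep300 at -0.19. The interaction, the knockout response to estradiol minus the wildtype response, ran from -0.30 (Ncoa1) to 0.04, with Carm1 at -0.22 ± 0.17 (adjusted p = 0.897).

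In the fit without covariates most member differences lay below 0. Under estradiol 7 of 8 were below 0 in knockout mice (49% of all genes), with a median of -0.27 log2 units beside 0.01 over all genes, and 6 of 8 in wildtype mice (48%), with -0.22 beside 0.01. Between genotypes 6 of 8 were below 0 under estradiol (44.8%), with a median of -0.20 beside 0.03, and 5 of 8 under placebo (45.7%), with -0.03 beside 0.02. In the interaction 7 of 8 were below 0 (49.9%), with a median of -0.13. On average 6 of 8 were below 0 for estradiol (47%) and 6 of 8 for genotype (44.4%). The placebo groups enter the estradiol comparisons and the genotype comparison alike, so these counts share arrays. Setting every array to a common median moved all genes by -0.13 in the wildtype response, by 0.16 between genotypes under estradiol and by 0.13 in the interaction. Under that scaling the counts below 0 were 6 in the wildtype response, 5 between genotypes under estradiol and 3 in the interaction, so the last turned to a minority. With the T and B cell level as a covariate, 7 of 8 were below 0 in the knockout response. In that fit 3 were below 0 in the wildtype response and 8 between genotypes under estradiol. The share of all genes below 0 was not counted with that covariate or under median scaling. These counts therefore have no background beside them. Median scaling moves every gene alike and so leaves the distance between the medians of the members and of all genes as it was.

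Members did pass the test on the T and B cell level of the arrays. Within the 4 groups, 5 of 8 members rose with it at an adjusted p under 0.05 and none fell (of all genes 29.3% were called, 14.3% rising and 15% falling). Per unit of the marker level, the log2 slope was 0.19 ± 0.02 for Ncoa3 (adjusted p = 0.000181), 0.16 ± 0.03 for Crebbp (0.0024), 0.12 ± 0.03 for Med1 (0.0105), 0.12 ± 0.03 for Ncoa2 (0.0085) and 0.10 ± 0.03 for Ep300 (0.0286). Nrip1 had -0.12 ± 0.04 (adjusted p = 0.0573), Ncoa1 -0.04 ± 0.03 and Carm1 -0.02 ± 0.02. Without wildtype placebo array 3 only 2 members were called, without knockout placebo array 2 only 3, and the count was highest, 6, without wildtype estradiol array 1. The sixth was Nrip1, which fell there at -0.14 (adjusted p = 0.0153) and also with median scaling at -0.13 (adjusted p = 0.0392). Ncoa1 fell in the mean of its probe sets, at -0.06 (adjusted p = 0.0286). Ep300 lost its call in 6 of the 12 fits that left out 1 array (adjusted p from 0.0528 to 0.17). Med1 was not called in the mean of its 7 probe sets (0.03, adjusted p = 0.204), and its probe sets differed in sign, from 0.12 for 1448708_at to -0.09 for 1450402_at (adjusted p = 0.0394). None of the other 3 Ncoa2 probe sets was called on the level, and 1 of the other 3 of Crebbp rose with it.

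Ncoa3 was the one member whose values did not overlap between the 5 arrays poor in T and B cell genes and the other 7, a separation seen in either direction for 6.11% of 18185 genes, the 8 markers left out. In the 5, in order of marker level from wildtype estradiol 3 over knockout estradiol 1, wildtype estradiol 1 and knockout placebo 2 to wildtype placebo 3, it read 8.22, 8.21, 8.46, 8.33 and 8.20. In the other 7, from knockout estradiol 3 over wildtype estradiol 2, knockout estradiol 2, wildtype placebo 2, knockout placebo 1 and knockout placebo 3 to wildtype placebo 1, it read 8.50, 8.86, 8.90, 9.09, 9.31, 9.09 and 9.18. Both its probe sets rose with the level, 1422737_at at 0.16 per unit (adjusted p = 0.0051). The slopes compare arrays that fall into 2 clusters, so no correlation is given.

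**Figure D4:**
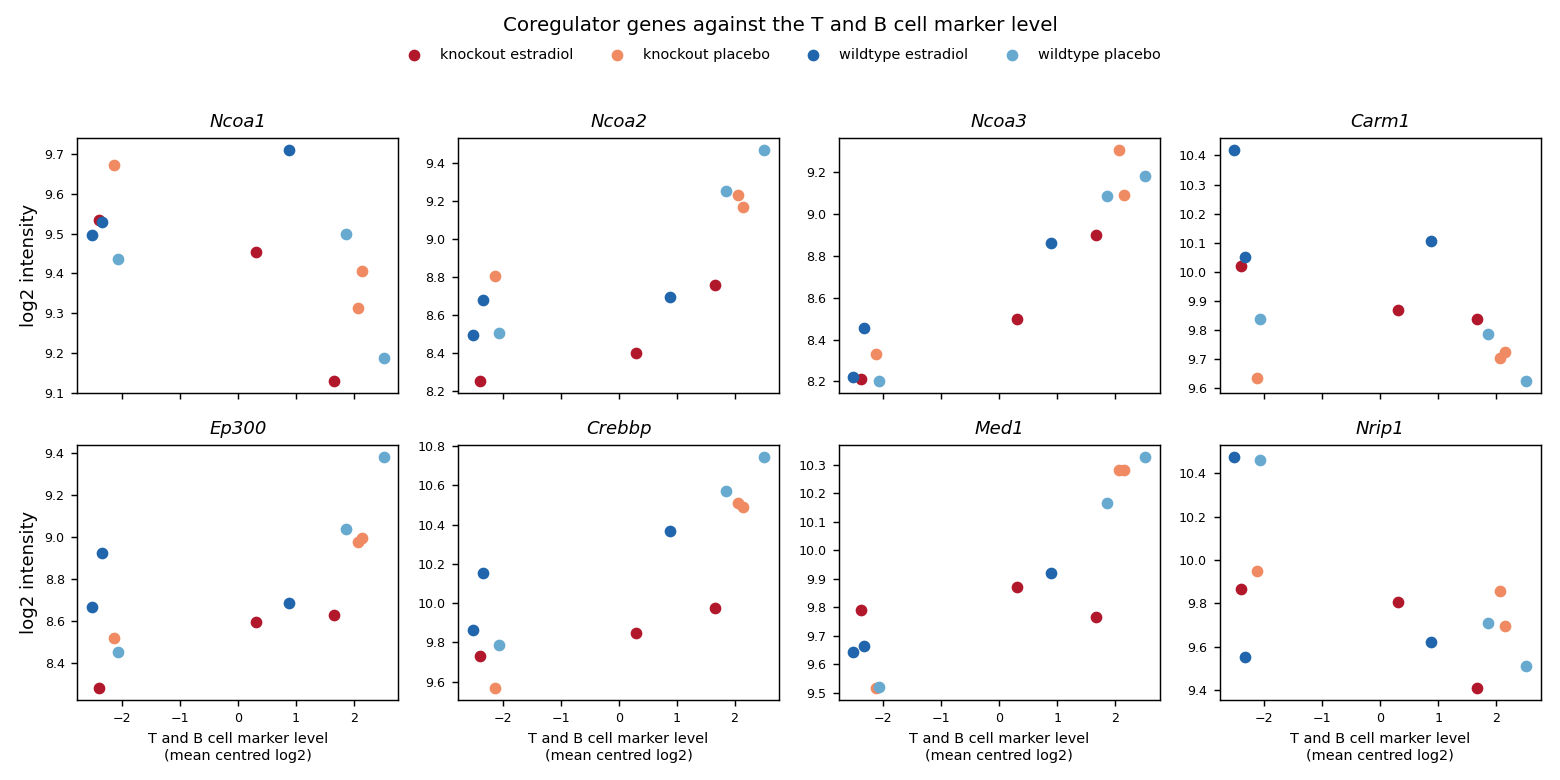
Log2 intensity of each of the 8 members (vertical axis, own scale per panel) against the T and B cell marker level of the array (horizontal axis, mean centred log2 of 8 markers), points coloured by group. The arrays form 2 clusters along the horizontal axis, and Ncoa3 (8.20 to 8.46 in the left one, 8.50 to 9.31 in the right one) separates them.

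Levels of other cells moved with the same arrays. The white adipocyte level lay between 0.07 and 0.46 in the 5 arrays poor in T and B cell genes and between -0.46 and -0.01 in the other 7. Within groups 5 members fell with it and Nrip1 rose, at 1.07 ± 0.31 log2 units per unit of level (adjusted p = 0.0292), where 27.6% of genes were called, 14.6% rising and 13% falling. On the endothelial level 5 members fell (21.4% of genes were called, 9.23% rising and 12.2% falling), and on the fibroblast level 4 did (18.4%, 9.26% rising and 9.11% falling). On the skeletal muscle, luminal, basal, brown adipocyte and macrophage levels no member was called, where 0.291%, 0.0055%, 0.165%, 0.0165% and 0% of genes were. The levels were not fitted together, and which of them the member values follow was not tested.

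A wider list of 71 coregulators, 70 of them measured and without the 8 members, was tested in the same fits. None was called in any of the 7 comparisons. At an unadjusted p under 0.05 there were 4 in the knockout estradiol response (8.32% of all genes), 6 in the wildtype response (13.5%) and 8 in their average (16.4%). Between genotypes there were 5 under estradiol (13.5%), 0 under placebo (2.03%) and 6 on average (10.1%), and the interaction had 2 (6.43%). In the average estradiol response the smallest p belonged to Hdac5, a class II histone deacetylase, at 0.46 ± 0.11 (adjusted p = 0.0802; 0.0264 without wildtype placebo array 3), and to Prmt1, the main arginine methyltransferase for asymmetric dimethylation, at 0.57 ± 0.15 (adjusted p = 0.110; 0.0154 with the T and B cell level as a covariate). Kat2b, the acetyltransferase PCAF that is known to bind cyclin D1, differed by -0.26 ± 0.07 on average (adjusted p = 0.116; 0.0461 without wildtype placebo array 3). For the average response 1400 genes were called without wildtype placebo array 3 and 495 with the T and B cell level, against 287 in the main fit. In knockout mice Kat2b read 10.41, 10.37 and 10.42 in the estradiol arrays, against 10.73, 10.78 and 10.71 in the placebo arrays. These did not overlap, as for 13.5% of all genes in either direction.

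Between genotypes under estradiol, Cited2, a partner of CBP and p300, differed by -0.82 ± 0.21 log2 units (adjusted p = 0.117; 0.047 with the T and B cell level as a covariate). The fit with that covariate called 905 genes in this comparison, against 204 without it. Cited2 read 9.21, 9.04 and 8.97 in knockout estradiol arrays, against 10.33, 9.78 and 9.57 in wildtype estradiol arrays. Fhl2, a LIM-domain cofactor, differed by -0.55 ± 0.15 (adjusted p = 0.123) and Prmt2, an arginine methyltransferase that binds estrogen receptor alpha, by -0.50 ± 0.14 (adjusted p = 0.126). The knockout estradiol arrays lay below the wildtype estradiol arrays for both genes, at 6.18 to 6.30 against 6.51 to 7.05 for Fhl2. Of all genes, 22.3% separate in either direction there. These same 3 genes had the smallest p in the interaction, at -0.69 for Cited2, -0.63 for Fhl2 and -0.42 for Prmt2 (adjusted p from 0.567 to 0.776). In the wildtype estradiol response Fhl2 (0.51), Hdac5 (0.47) and Prmt2 (0.35) led, and under placebo the genotype differences of Sin3b (0.21), Pelp1 (0.22) and Tbl1x (-0.23) had the smallest p, none called.

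Among all genes, those whose centred values over the 12 arrays differed least from Ncoa2, the member whose group means varied most, were Nr2c2 and Ncapd3 (root mean square difference 0.10 log2 units each), Kat6a and Ssh2 (0.11 each) and Otud4 (0.12).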

How the data were processed

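Total RNA of 12 mammary glands was measured on 12 single-colour Affymetrix arrays, and the deposited values are log2 intensities that, per the submitters' processing notes, the authors made with RMA and limma 2.9.16; the RMA version and chip definition are not given in the sources used here. That the values are log2 was checked on them. Of 45101 probe sets, 64 controls were left out, 34945 link to 1 gene and 932 to several by the platform annotation, which can be old. Where several probe sets measure 1 of the 18193 genes, the one brightest on average over all arrays stands for it, with no filter on dim genes and no comparison of levels between genes. Intensities of arrays have no sequencing depth, and the number of arrays limits the precision.

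One limma fit (limma 3.58.1, R 4.3.3) of 4 group means with eBayes (8 residual and 2.15 prior degrees of freedom) gave all 7 comparisons. These are estradiol minus placebo and knockout minus wildtype within each level of the other factor, their 2 averages, and the interaction. Tests are two-sided, with Benjamini-Hochberg adjustment across the 18193 genes (or the 34945 probe sets), and ± values are SE; p-values measure the spread between these mice. Slopes on marker levels come from the same fit with the level added, with the markers of that list left out of the shares of genes called. The steps were tested on simulated data. The members, the gene lists and the tests were chosen with earlier results of these data known. The rule for names takes all members, Ccnd1, Esr1, Esr2, Pgr and Greb1, the wider coregulators called or, where none is, the 3 with the smallest p per comparison, and the 5 genes nearest to the member whose group means vary most. Promoters are RefSeq's on GRCm38.p6, used for letters only. Alternatives were other gene summaries, scalings, priors, weights, blocks, thresholds and left-out arrays; covariates, the omission of 2 placebo arrays and those on a single Nrip1 probe set were added after seeing the data. Plots used matplotlib 3.10.9 (Python 3.11.15).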

Additional observations from a re-analysis of the deposited data

How the results depend on the processing

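No member was called in any comparison under other gene summaries, scalings or priors, the fit of only the groups compared, the dimmest 40% of genes left out, or the T and B cell level as a covariate. In the other 5 comparisons no setting called one. In the wildtype estradiol response array weights called 4 members (Ncoa2, Ncoa3, Med1 and Carm1, among 4702 genes). The omission of the 2 placebo arrays poor in T and B cell genes called 2 (Ncoa2 and Med1, among 2154 genes). It kept the estradiol arrays poor in these genes, so hormone and T and B cell level overlap in that fit. An adjusted p under 0.10 called 1 (among 715 genes), and leaving out single arrays 0 to 1 (among 100 to 1146 genes). In the average estradiol response the same settings called 6 (among 4835 genes), 6 (among 3913), 1 (among 585) and 0 to 2 (among 127 to 1400). The white adipocyte level as a covariate called 1 there and the endothelial level 2. Genes called over the whole table with these 2 covariates were not counted. The estimate of the array weights stopped before it converged, and the causes were not tested. The members called on the T and B cell level numbered 2 to 6 when single arrays were left out.

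Of the 8 members, 7 lay below 0 in the interaction, but 3 did with median scaling or without wildtype placebo array 3. With the mean of all probe sets 4 did. On average between genotypes they numbered 4 with median scaling, against 6. The shares of all genes below 0 in these other fits were not counted. Signs turned for single differences printed here, among them those of Ncoa2 with the basal level (0.73 in wildtype, 0.20 on average) and the fibroblast level (0.10 in wildtype). With the T and B cell level, the wildtype response was 0.090 for Ncoa3, 0.017 for Ep300 and 0.10 for Crebbp, the average response of Ncoa1 was -3e-04, and knockout minus wildtype under estradiol was -0.20 for Ncoa3 and -0.078 for Med1. Nrip1 gave 0.24 with array weights and 0.28 without the 2 placebo arrays in wildtype, 0.077 and 0.097 on average, and with the mean of its probe sets 0.084 in knockout, 0.0405 on average and 0.0185 between genotypes under estradiol. The mean of probe sets gave -0.11 for Ncoa3 there. Median scaling gave 0.0091 for Ncoa2 between genotypes under estradiol and -0.0013 for the average response of Ncoa1. Without the 2 placebo arrays Ncoa1 in knockout was 0.013. Leaving out single arrays gave ranges across 0: in wildtype -0.31 to 0.28 for Nrip1 and -0.45 to 0.0135 for Ep300; in knockout -0.17 to 0.031 for Ncoa1 and -0.22 to 0.003 for Nrip1. Between genotypes under placebo they gave -0.47 to 0.13 for Crebbp and -0.38 to 0.0845 for Ep300. Between genotypes under estradiol they gave -0.16 to 0.20 for Ncoa3 and -0.35 to 0.11 for Nrip1, and the average response of Nrip1 gave -0.22 to 0.068.

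Genes called over the whole table moved more. For the wildtype response 342 became 186 with median scaling, 71 in the fit of those groups alone, 653 with the T and B cell level and 100 to 1146 without single arrays. Between genotypes under estradiol 204 became 0 without knockout estradiol array 3 and 905 with the T and B cell level. The labels do not say whether replicate numbers pair the mice. Deviations of same-numbered arrays correlated at -0.741 to 0.66, with 7 of 18 pairs above 0.1, and those of differently numbered arrays at -0.757 to 0.705. These ranges cannot tell whether same-numbered mice were handled together. The replicate block left the members called at 0 in all 7 comparisons, with 158 genes called for the wildtype response, 10 for the knockout response and 45 between genotypes under estradiol. The Ccnd1 difference ran from -2.12 to -1.65 without single arrays. The size of difference that could be called was limited by 3 arrays a group.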

Other observations

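In the wider list of 70 coregulators, 27 rose with the T and B cell level of the arrays within groups and 1 fell, Ctbp2, a corepressor that binds NAD, at -0.11 ± 0.02 log2 units per unit of level (limma, adjusted p = 0.0060). Those with the smallest p, chosen after their values were seen, were Arid1a, a subunit of the SWI/SNF chromatin remodellers, at 0.32 ± 0.03 (adjusted p = 0.000166), Trim28, a corepressor of zinc-finger proteins, at 0.18 ± 0.02 (0.000331), and Kdm1a, a histone demethylase, at 0.14 ± 0.02 (0.000458). On the white adipocyte level 1 rose, Ctbp2, and 21 fell. Over all genes tested, 14.3% rose and 15% fell with the T and B cell level. Ctbp2 read 8.42, 7.97 and 8.24 in knockout estradiol arrays, 8.05, 8.43 and 8.19 in knockout placebo, 8.93, 8.75 and 9.08 in wildtype estradiol and 8.12, 8.43 and 8.91 in wildtype placebo arrays. Its knockout estradiol arrays lay below its wildtype estradiol arrays, where 22.3% of all genes separate in either direction. The average genotype difference of Ctbp2, -0.48 ± 0.14, was not called (limma, adjusted p = 0.309).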
